A study of Arabidopsis thaliana with 18 samples.

Results

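The data compare 2 Arabidopsis thaliana mutants with each other in the absence of stress: rrp6l1-2 and ahl10-1, with 3 RNA-seq libraries each. These are 6 of the 18 libraries of the series. They were chosen by genotype and water potential alone, and all genes were examined. Both mutants are SALK insertion lines, Salk_027601 (rrp6l1-2) and Salk_073165 (ahl10-1), and each gene is represented by a single allele. Whole seedlings were grown on agar with no sugar under continuous light, kept at a water potential of -0.25 MPa and harvested on day 11, 96 h after the time of transfer. The series' design text has these controls moved to fresh control plates on day 7, while the treatment protocol says only that they went on growing. All organs are mixed in whole seedlings, and a lower transcript level can mean fewer cells of a type or less RNA per cell. The wild type (WT, accession Col-0) entered none of the fits on the 6 libraries and is given only as a reference level. The same genotypes moved on day 7 to medium infused with polyethylene glycol (-0.7 MPa, 96 h) gave a second, separate set of 6 mutant libraries.

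RRP6L1 belongs to the plant relatives of RRP6, a nuclease that works with the RNA exosome. The exosome is the complex that trims and destroys RNA from its 3′ end, and in the nucleus it removes non-coding, read-through and other unwanted transcripts. In Arabidopsis, RRP6L1 has been linked to non-coding RNA and to silencing by DNA methylation. AHL10 is one of the AT-hook motif nuclear localized (AHL) proteins, which bind AT-rich DNA and are known as regulators of growth and development. The comparison asks how far the transcriptomes of the 2 mutants differ when no stress is applied.

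The 6 libraries held 60066491 to 66420959 reads assigned to genes, with 24067 to 24352 genes detected per library. A count of 0 allows up to 3 reads, or 0.0452 to 0.0499 CPM (counts scaled to a common library size) in these libraries, and this limit covers counting error only. In a principal component analysis the first component held 31.9% of the variance. Along it ahl10-1 replicate 1 lay apart, at -44.0, and rrp6l1-2 replicate 3 lay at the other end, at 37.9. Libraries with the same replicate number deviated together from their group means (r = 0.31, 0.47 and 0.35 for numbers 1, 2 and 3), so values are also given within each number. Levels below are CPM scaled by TMM factors, in the order of replicates 1, 2 and 3, and fold changes are rrp6l1-2 over ahl10-1 on the log2 scale, each with the fit's standard error (SE).

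Transcript levels in the 2 mutants were close for nearly every gene. Of 22075 genes tested with edgeR's quasi-likelihood test on the 6 libraries, 4 (0.0181%) were called at an adjusted p under 0.05. RRP6L1 and its near neighbour AT1G54410 were lower in rrp6l1-2, and AT5G26270 and the transcription factor gene LBD26 were higher (0.00906% of the tested genes in each direction). The absolute log2 difference was under 0.5 for 93.2% of the genes and reached 1 for 317. An unadjusted p under 0.05 was found for 784 genes, 3.55% of those tested. More genes were called by other fits of the same counts: DESeq2 called 40 of 26108 (0.153%), and edgeR with all 18 libraries in the fit, which estimates the spread with 12 instead of 4 residual degrees of freedom, called 19 of 22795 (0.0834%). The 4 genes were called by all 3 fits.

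**Figure D1:**
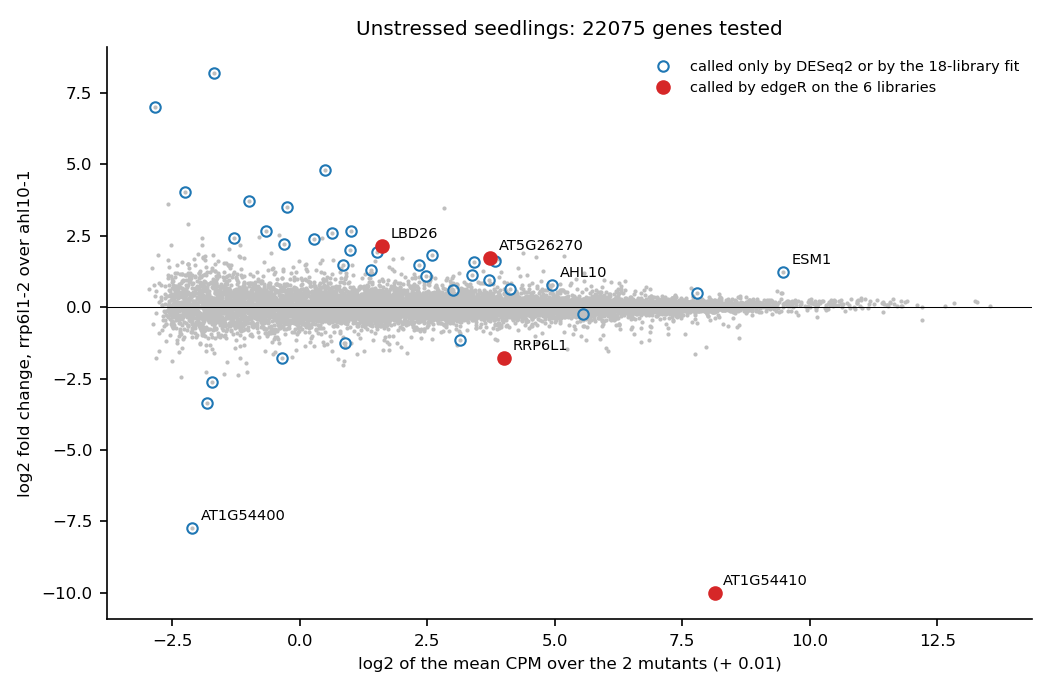
Log2 fold change (vertical axis, rrp6l1-2 over ahl10-1, edgeR) of 22075 genes against the log2 of their mean CPM over the 6 unstressed libraries (horizontal axis). Filled circles mark the 4 genes called on the 6 libraries, and open circles those called only by DESeq2 or by the fit with 18 libraries; nearly all other genes (grey) lie within 1 of the zero line.

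The targeted genes came first, as a check of the labels. RRP6L1 (AT1G54440) stood at 25.9, 24.6 and 24.6 CPM in the ahl10-1 libraries and 5.63, 7.09 and 8.97 CPM in rrp6l1-2. Every rrp6l1-2 library was below every ahl10-1 library, and the WT libraries (25.3 to 28.0 CPM) lay at the ahl10-1 level. The log2 fold change was -1.78 ± 0.16 (edgeR adjusted p = 0.0370), a 3.46-fold lower mean. Where along the transcript the remaining reads lie cannot be read from gene counts. With the replicate number as a block the edgeR call was lost (adjusted p = 0.233), as it was without ahl10-1 replicate 1, 2 or 3 or rrp6l1-2 replicate 2, at log2 values between -1.80 and -1.76.

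AHL10 (AT2G33620) stood at 25.4, 22.1 and 20.9 CPM in the ahl10-1 libraries and 39.0, 40.2 and 36.9 CPM in rrp6l1-2. The libraries of the 2 mutants did not overlap, and the level in ahl10-1 was well above the detection limit. The log2 fold change was 0.77 ± 0.086, which edgeR on the 6 libraries did not call (adjusted p = 0.0850) and DESeq2 did (adjusted p = 9.58e-09). In the WT libraries AHL10 was at 45.1 to 46.5 CPM, above all 3 rrp6l1-2 libraries. AHL10 overlaps 2 annotated genes on the opposite strand, and the strand setting of the counting is not given in the sources used here.

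Levels around each insertion were read gene by gene, over the 5 annotated genes on each side. Coordinates are those of the TAIR10.1 annotation. Upstream of RRP6L1 (chromosome 1, 20322964 to 20328238, plus strand), AT1G54410 (20309473 to 20310850, minus strand) encodes a dehydrin of the KS type. Dehydrins are hydrophilic proteins that protect membranes and proteins in drying cells, and this one is annotated as limiting the formation of reactive oxygen species. AT1G54410 was at 501, 533 and 650 CPM in the ahl10-1 libraries and 0.494, 0.478 and 0.656 CPM in rrp6l1-2. That is a 1034-fold lower mean, resting on 94 reads over the 3 rrp6l1-2 libraries against 103224 in ahl10-1. The log2 fold change was -10.0 ± 0.21 (edgeR adjusted p = 3.19e-06), and it was the gene that kept its call in every alternative fit of the unstressed libraries, the replicate block included (adjusted p = 4.62e-05).

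The next gene out, AT1G54400 (20307572 to 20308846), encodes an HSP20-like chaperone. It had 22 to 37 reads in each ahl10-1 library and 0 in each rrp6l1-2 library, at least 25.8-fold lower against a limit of 3 reads over the group. DESeq2 called it (adjusted p = 0.000148), and edgeR on the 6 libraries did not (adjusted p = 0.283). Between AT1G54410 and RRP6L1, AT1G54430 and AT1G54420 had almost no reads in either mutant (means of 0.00981 CPM or less).

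Downstream of RRP6L1 the difference ran the other way. AT1G54445 (20332149 to 20332970), a defensin-like gene, had 0 reads in ahl10-1 and WT and 8 to 23 reads in each rrp6l1-2 library, at least 15.7-fold higher against the same limit (DESeq2 adjusted p = 0.00974; too low for the edgeR filter). AT1G54450 (20336203 to 20339769), an EF-hand calcium-binding protein gene, was at 6.87, 6.45 and 5.87 CPM in the ahl10-1 libraries and 9.81, 10.0 and 9.21 CPM in rrp6l1-2. Its log2 fold change was 0.61 ± 0.10 (edgeR adjusted p = 0.410; DESeq2 adjusted p = 0.00265). Farther out, AT1G54460 had nearly the same mean in both mutants (38.8 ± 1.40 and 38.4 ± 2.08 CPM, SD, n = 3), and RPP27 was at 0.330 ± 0.139 and 0.425 ± 0.132 CPM. Thus DESeq2 called 4 of the neighbours read, 2 lower on one side of RRP6L1 and 2 higher on the other.

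Near AHL10 no neighbour was called by edgeR on the 6 libraries, by DESeq2 or by the fit of 18 libraries. SWI3B, a subunit gene of SWI/SNF chromatin remodelling complexes directly upstream, was at 33.7 ± 2.29 CPM in ahl10-1, against 27.9 ± 0.897 CPM in rrp6l1-2, without overlap (log2 -0.26 ± 0.071, adjusted p = 0.952). The libraries of the 2 mutants overlapped for LYK5, AT2G33585, CRL1, CRL2, AT2G33630 and AT2G33640, with log2 values between 0.0057 and 0.17. AT2G33655 and AT2G33650 had 0 reads.

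**Figure D2:**
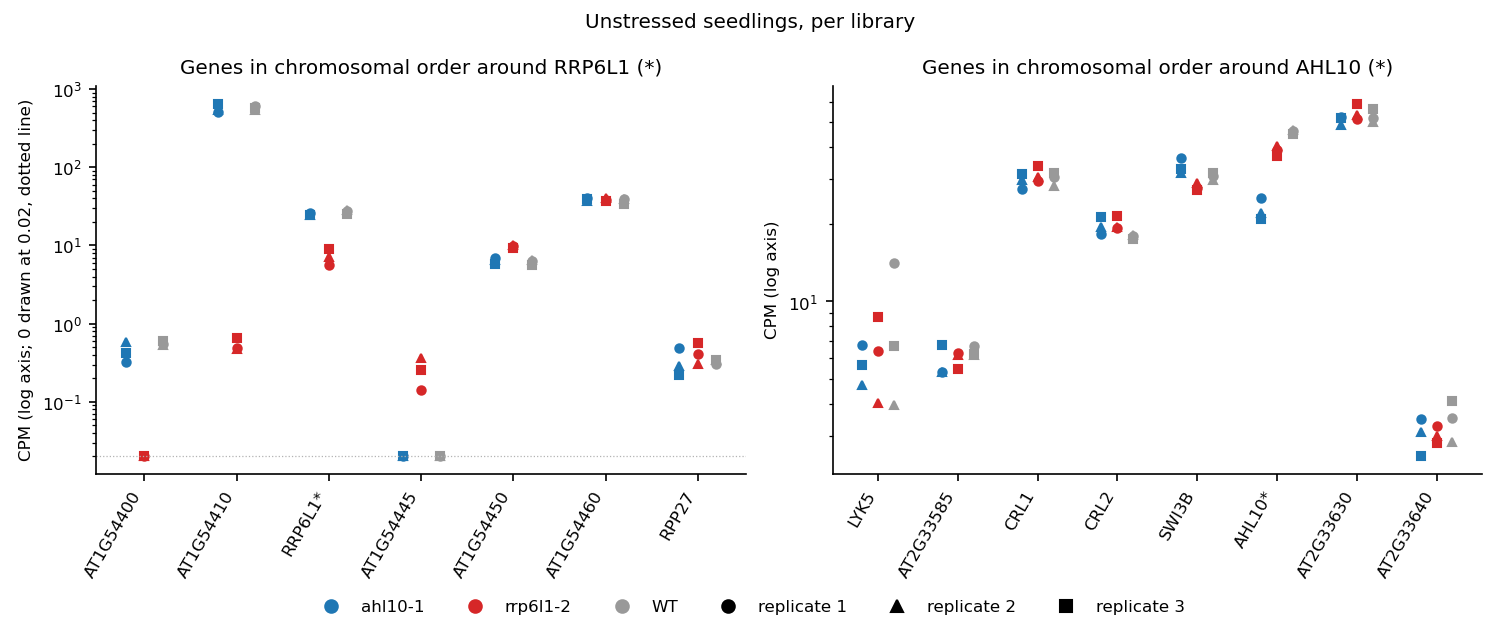
CPM per library (log axis, symbols by replicate number) in unstressed ahl10-1, rrp6l1-2 and WT seedlings for the measured genes around RRP6L1 (left) and AHL10 (right), in chromosomal order and with genes of 3 reads or fewer left out. On the left AT1G54400 and AT1G54410 are lower in rrp6l1-2 and AT1G54445 is above 0 only there; on the right AHL10 is lowest in ahl10-1.

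Both genes that were higher in rrp6l1-2 in the main test lie away from either insertion. AT5G26270, which encodes an uncharacterized protein (chromosome 5, 9206375 to 9208136), was at 6.76, 6.55 and 5.50 CPM in the ahl10-1 libraries and 22.1, 18.7 and 20.2 CPM in rrp6l1-2. The lowest rrp6l1-2 library was above every ahl10-1 and WT library (WT, 6.43 to 9.20 CPM), and the log2 fold change was 1.70 ± 0.11 (edgeR adjusted p = 0.00666). An annotated gene on the opposite strand, AT5G04225, overlaps it, so reads of the pair cannot be told apart here. With the replicate block the adjusted p was 0.0812, and without ahl10-1 replicate 2 it was 0.0722.

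LBD26 (AT3G27940, chromosome 3, 10373251 to 10376480) encodes a member of the LOB-domain family of plant transcription factors. It had 1.1, 1.06 and 1.26 CPM in the ahl10-1 libraries and 4.90, 4.94 and 5.12 CPM in rrp6l1-2, with WT at 0.904 to 1.77 CPM. The spread within each mutant was small, and the log2 fold change was 2.14 ± 0.16 (edgeR adjusted p = 0.0108). The edgeR call was lost with the replicate block (adjusted p = 0.158) and in 4 of the 6 fits that left out a library (ahl10-1 replicate 2 or 3, rrp6l1-2 replicate 2 or 3), with the log2 value between 2.09 and 2.2 throughout those 6.

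The 3 fits together named 41 genes, 32 higher and 9 lower in rrp6l1-2. DESeq2 gave 40 of them, 0.123% of its tested genes higher and 0.0306% lower. The genes named from here on were chosen after their values were seen. For all 41 the libraries of the 2 mutants did not overlap, which is how such genes come to be called and is read as nothing more (8.1% of all genes tested do not overlap). One of the 41, ABH1, came from the 18-library fit alone. It encodes the large subunit of the nuclear cap-binding complex and differed little, from 52.1, 51.0 and 51.1 CPM in ahl10-1 to 43.0, 44.9 and 41.3 CPM in rrp6l1-2 (18-library edgeR adjusted p = 0.0407; adjusted p = 0.952 on 6 libraries). The levels of 31 of the 41 lay outside the WT range in rrp6l1-2 and overlapped it in ahl10-1; 25 of these were above WT and 6 below. Among all 22075 genes tested, 19.0% had that pattern, and the 41 were chosen for a difference between the mutants, so the counts are a description. For AT5G28335 it was ahl10-1 that lay above WT while rrp6l1-2 overlapped it.

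**Figure D3:**
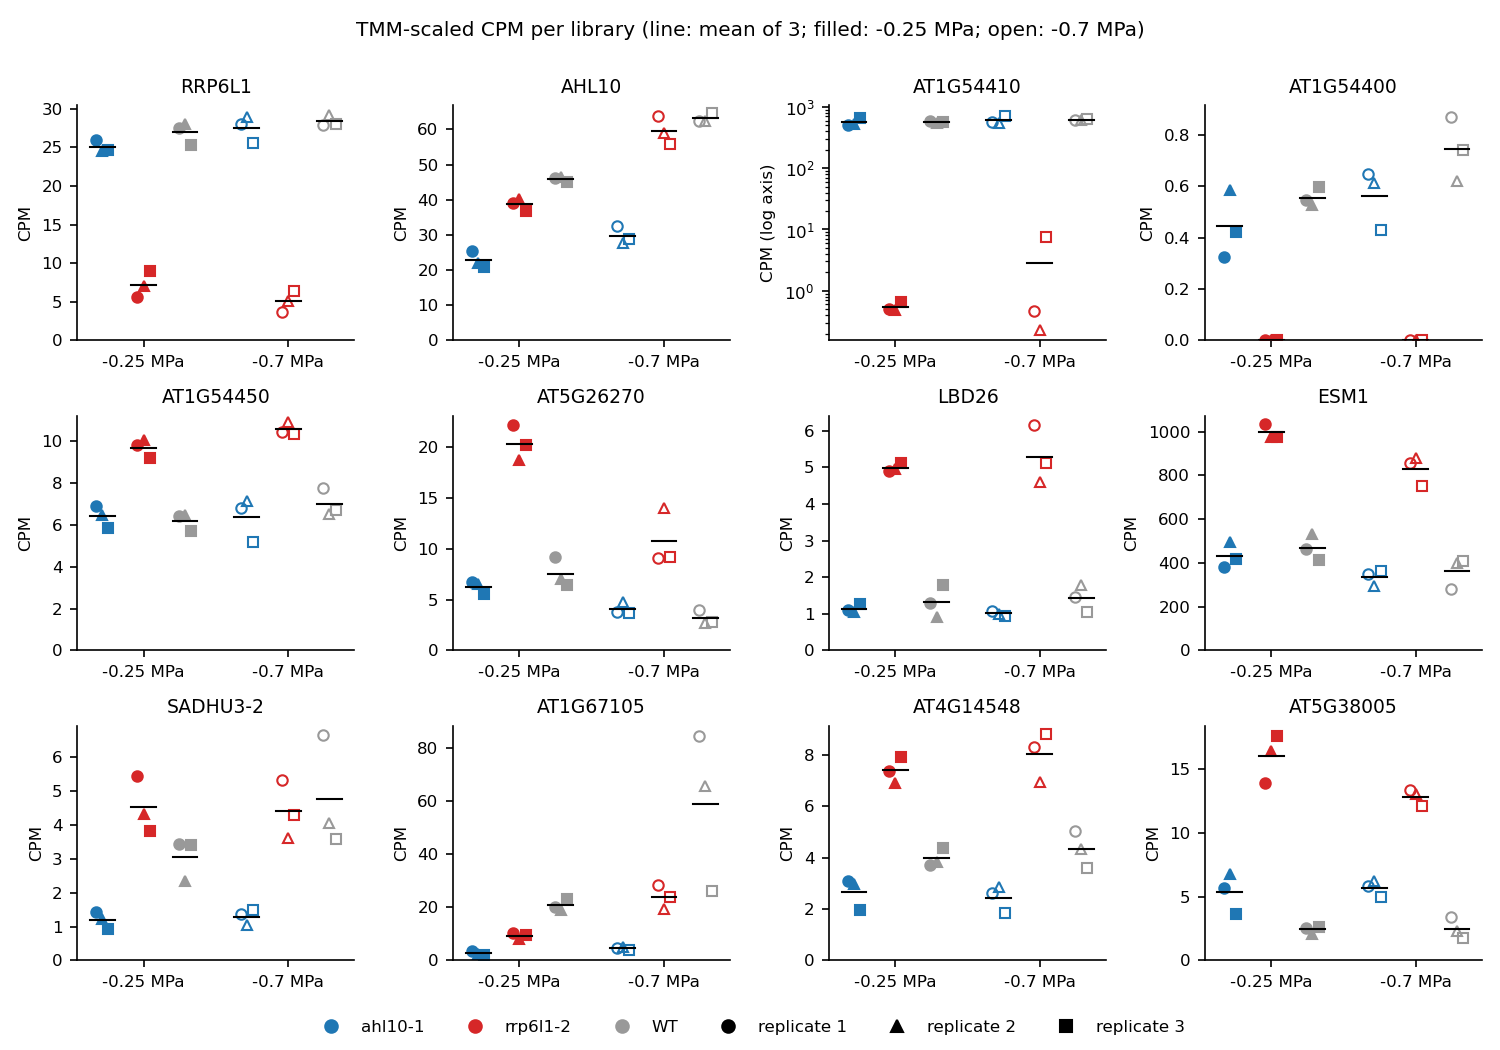
CPM per library (vertical axes, log axis for AT1G54410) of 12 genes in ahl10-1, rrp6l1-2 and WT at -0.25 MPa (filled) and -0.7 MPa (open); symbols give the replicate number and lines the mean of 3 libraries. RRP6L1, AT1G54410 and AT1G54400 are lower in rrp6l1-2 and the other genes lower in ahl10-1, at both water potentials.

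Among protein-coding genes, ESM1 (AT3G14210) carried the largest number of reads of those higher in rrp6l1-2. ESM1 encodes a protein of the GDSL lipase family that in Arabidopsis shifts glucosinolate breakdown towards isothiocyanates, the pungent defence compounds of mustards. It was at 381, 494 and 418 CPM in the ahl10-1 libraries and 1036, 976 and 978 CPM in rrp6l1-2. WT, at 413 to 531 CPM, lay at the ahl10-1 level. The log2 fold change was 1.22 ± 0.14 (edgeR adjusted p = 0.0850 on 6 libraries and 0.000927 with 18; DESeq2 adjusted p = 2.05e-20). Of 22 tested genes of glucosinolate synthesis, 0 were called by any of the 3 fits.

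Among the other genes higher in rrp6l1-2, AT1G58602, an NB-ARC and LRR disease resistance gene known as RPP7, was at 160, 204 and 183 CPM in ahl10-1, against 265, 270 and 238 CPM in rrp6l1-2 (DESeq2 log2 0.50 ± 0.12, adjusted p = 0.0215). The annotated pseudogene AT1G58561 lies within it on the same strand and was 1.92-fold higher, so their reads may be shared. AT1G47370, a TIR-domain gene, was at 0.692, 0.872 and 1.32 CPM against 2.22, 2.71 and 2.90 CPM (DESeq2 adjusted p = 0.00165). AT3G54730, annotated as a transcription repressor, was at 0.444 to 0.676 CPM against 2.28 to 5.58 CPM, with up to 35.1% of its reads multi-mapped.

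LTI78, better known as RD29A and a standard marker of the response to cold, drought and abscisic acid, had 12.6, 13.5 and 15 CPM in ahl10-1, against 24.0, 19.4 and 20.4 CPM in rrp6l1-2. The DESeq2 log2 fold change was 0.64 ± 0.14 (adjusted p = 0.00226; edgeR adjusted p = 0.410). Protein-coding genes of the set that were lower in rrp6l1-2 outside the RRP6L1 region were ABH1, given above, and the cytochrome P450 gene CYP71A27, at 10.2, 17.5 and 8.97 CPM in ahl10-1, against 4.73, 5.16 and 6.4 CPM in rrp6l1-2 (DESeq2 log2 -1.16 ± 0.26, adjusted p = 0.00826).

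Of the 41 genes, 17 (41.5%) are not annotated as protein-coding: 11 pseudogenes, 1 transcribed pseudogene and 5 non-coding RNAs. All but protein-coding genes made up 8.92% of the genes with a DESeq2 adjusted p, a share that includes loci missing from the annotation (1.35%). No test was made of the difference. Of the 17, 13 were higher in rrp6l1-2, beside 19 of the 24 protein-coding genes of the set. The direction therefore did not set the 17 apart. Of these 17, 5 averaged at most 1 CPM in both mutants, and of all 41 genes 31 averaged over 1 CPM in at least one. For 7 of the 41 (AT1G58561, AT3G54730, AT4G01980, AT4G04223, AT5G28263, AT5G28335 and AT5G39150) over 10% of the reads were multi-mapped in some library, so their counts depend on how reads were shared between copies. Of the 22075 genes tested by edgeR, 21449 were not over that limit.

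SADHU3-2 (AT3G42658), a member of the Sadhu family of non-coding retrotransposons, was at 1.43, 1.22 and 0.932 CPM in ahl10-1, against 5.45, 4.32 and 3.81 CPM in rrp6l1-2. WT lay between the mutants, at 2.34 to 3.44 CPM, and overlapped neither. The log2 fold change was 1.93 ± 0.22 (edgeR adjusted p = 0.0850; DESeq2 adjusted p = 2.25e-11). The pseudogene AT2G15940 was at 0.103, 0.159 and 0.0183 CPM against 4.92, 1.02 and 2.15 CPM, a 28.9-fold higher mean (18-library edgeR adjusted p = 0.00150). The adjacent pseudogenes AT2G15510 and AT2G15520 had 0 reads in ahl10-1 and 106 and 46 reads over the 3 rrp6l1-2 libraries. They were at least 37.4-fold and 16.2-fold higher, against 3 reads over the group (DESeq2 adjusted p = 9.49e-06 and 0.00568).

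The non-coding RNA genes of the set were all higher in rrp6l1-2 than in ahl10-1, but they lay differently against WT. AT1G67105 was at 3.43, 2.50 and 2.07 CPM in ahl10-1, 10.4, 8.07 and 9.57 CPM in rrp6l1-2 and 19.0 to 23.2 CPM in WT, so both mutants were below WT and ahl10-1 the lower (DESeq2 log2 1.81 ± 0.22, adjusted p = 2.6e-13). AT5G38005 was at 5.70, 6.75 and 3.67 CPM in ahl10-1, 13.9, 16.5 and 17.63 CPM in rrp6l1-2 and 2.1 to 2.64 CPM in WT, so both mutants were above WT (DESeq2 adjusted p = 3.77e-09). AT4G04223 had the same order, at 3.47 to 11.3, 20.5 to 23.2 and 1.00 to 2.22 CPM. AT4G14548 was above WT in rrp6l1-2 (6.90 to 7.91 against 3.73 to 4.39 CPM) and below it in ahl10-1 (1.97 to 3.11 CPM). AT2G01422 had 4 reads over the ahl10-1 libraries and 67 over those of rrp6l1-2.

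Other pseudogenes of the set had low but separate levels. AT4G01980 was at 0.221, 0.0793 and 0.0914 CPM in ahl10-1, against 1.32, 1.48 and 1.79 CPM in rrp6l1-2 (DESeq2 adjusted p = 1.14e-10), and AT1G43590 at 0.347 to 0.571 CPM against 1.5 to 3.34 CPM (DESeq2 adjusted p = 9.69e-08). Those lower in rrp6l1-2 were AT4G08093, AT5G44925, AT5G28263 and AT5G28335. AT5G44925 had 0 reads in WT and was at 0.366 to 0.587 CPM in ahl10-1, against 0.0706 to 0.0956 CPM in rrp6l1-2. AT5G28263, with up to 52.1% of its reads multi-mapped, was at 2.36 to 2.80 CPM in ahl10-1, against 0.988 to 1.19 CPM in rrp6l1-2.

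Some of the 41 lie close together. A second member within 100000 bases was found for 14 of them, in 5 groups. How often other tested genes lie this close was not computed, so the count is a description. The RRP6L1 region held 5, and AT1G58602 with AT1G58561, AT1G67105 with AT1G67148 and AT1G67150, AT2G15510 with AT2G15520, and AT5G28263 with AT5G28335 made up the others. Members of a group differed in the same direction in each case but the RRP6L1 region. AT1G58561 lies within AT1G58602, and AT5G28263 and AT5G28335 have multi-mapped reads, so counts within those groups may not be independent.

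The same contrast was then read in the 6 libraries at low water potential, which the selection of the 41 genes did not use in the edgeR fit of 6 libraries or in DESeq2. There edgeR called 16 of 22156 genes (0.0722%), 11 higher (0.0496%) and 5 lower (0.0226%), and DESeq2 52 of 26624 (0.195%). Of the 41 genes, edgeR called 13 and DESeq2 27 at stress, each in its unstressed direction. The 13 are 31.7% of the 41 and 81.2% of edgeR's stress calls, and the 27 are 65.9% of the 41 and 51.9% of DESeq2's. The stress libraries of the 2 mutants did not overlap for 37 of the 41, all in the unstressed direction, against 6.47% of all genes tested. The sign of the DESeq2 fold change was the same for 40 of 41, the exception being LTI78. With the replicate number as a block in DESeq2, AT5G39150 also changed sign, from 1.29 without stress to -0.43 at stress, where it was not called.

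Several genes that the edgeR test on 6 libraries left uncalled without stress were called at stress by the same test. AHL10 had a log2 fold change of 1.00 ± 0.082 (adjusted p = 0.00285), ESM1 1.30 ± 0.11 (adjusted p = 0.00359), AT1G67105 2.4 ± 0.15 (adjusted p = 0.00166) and SADHU3-2 1.77 ± 0.21 (adjusted p = 0.0256). LBD26 and RRP6L1 were called at both water potentials (2.39 ± 0.17 and -2.44 ± 0.18 at stress), while AT5G26270 was not called by edgeR at stress (1.40 ± 0.19, adjusted p = 0.0635). AT1G54410 was at 0.459, 0.230 and 7.66 CPM in rrp6l1-2 at stress against 551 to 707 CPM in ahl10-1. EdgeR on the 6 stress libraries did not call it (log2 -7.78 ± 1.43, adjusted p = 1.00), and DESeq2 gave it no adjusted p. It was called by edgeR without rrp6l1-2 replicate 3 (log2 -10.8 ± 0.29, adjusted p = 2.65e-05), by edgeR with all 18 libraries (adjusted p = 0.00207) and by DESeq2 with the replicate block (log2 -9.51 ± 1.30, adjusted p = 5.16e-10).

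The difference between the mutants was tested for a change with stress over the 12 mutant libraries. Of 22581 genes, 0 were called by edgeR, with 472 at an unadjusted p under 0.05, and DESeq2 called 0 of 27289, with 595 under that value. Among the 40 genes of the set that could be tested, 4 had an unadjusted p under 0.05: RRP6L1 (0.0276), AT1G67105 (0.0407), AT5G44925 (0.0289) and LTI78 (0.0112). All had an edgeR adjusted p of 1.00. Over all genes tested by edgeR, 2.09% had an unadjusted p under 0.05. The 40 genes had been selected on the unstressed libraries, which enter this test too, so the 4 are a description.

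**Figure D4:**
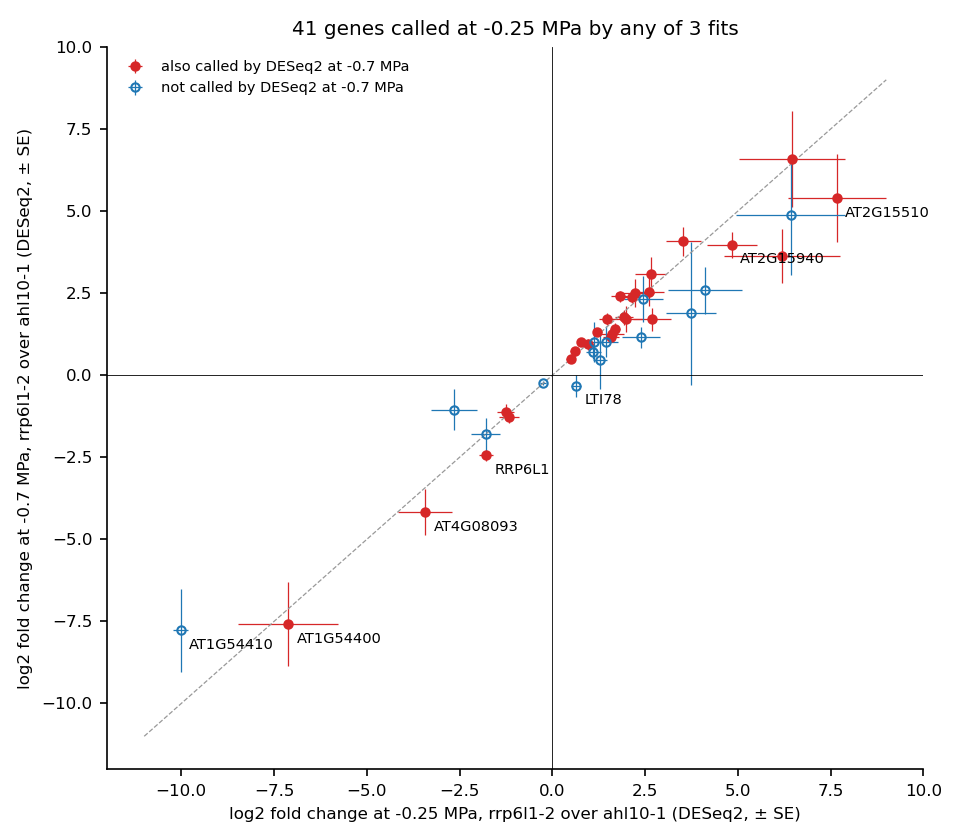
Log2 fold change of rrp6l1-2 over ahl10-1 at -0.7 MPa (vertical axis) against that at -0.25 MPa (horizontal axis) for the 41 genes, from separate libraries; bars are the SE of DESeq2 and the dashed line marks equal values. Filled points are the 27 genes also called by DESeq2 at stress, and LTI78 alone has opposite signs.

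Gene lists for 33 pathways, families and cell types were then read for smaller shifts, with 646 tested loci in all. No list other than the exosome and dehydrin lists had a member called by edgeR on the 6 libraries, and those had 1 each (RRP6L1 and AT1G54410). Medians of the lists ran from -0.32 to 0.71 on the log2 scale, beside 0.0053 for all genes tested. For 8 of 33 lists the medians within the 3 replicate numbers had one sign. That count is a description, since 3 signs can also agree by chance. The 18 other genes of the exosome and its cofactors were near equal, with log2 values between -0.15 and 0.10. The paralogs RRP6L2 (log2 -0.016 ± 0.078) and RRP6L3 (-0.048 ± 0.083) were among them. RNA decay and small RNA genes lay between -0.15 and 0.14, and genes of DNA methylation and silencing between -0.32 and 0.24; 0 were called.

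In the AHL family, 27 of 28 tested genes had no call by any of the 3 fits, AHL10 being the exception under DESeq2 and the 18-library fit. The family median was -0.12, and 8 members were above 0. Of the dehydrin family, the 8 genes other than AT1G54410 were not called, among them COR47 (0.033 ± 0.11), ERD10 (0.17 ± 0.095) and ERD14 (-0.069 ± 0.11). The summed level of the 9 dehydrin genes, AT1G54410 included, was 1156 to 1333 CPM in ahl10-1, against 665 to 700 CPM in rrp6l1-2. AT1G54410 alone accounted for 501 to 650 CPM of the sum in ahl10-1 and 0.478 to 0.656 CPM in rrp6l1-2. The 25 genes induced by dehydration and abscisic acid had a median of 0.17 (0.051, 0.21 and 0.17 within numbers 1, 2 and 3), and 20 were above 0. DESeq2 called LTI78 among them, and edgeR 0. An unadjusted edgeR p under 0.05 was found for 1 of them. The summed level of these 25 genes was 993 to 1048 CPM in ahl10-1, against 1073 to 1213 CPM in rrp6l1-2, without overlap. The WT sums, 967 to 1093 CPM, overlapped those of both mutants, and at stress the list's median was -0.22. In all, 3 of the 33 lists had sums that did not overlap: the dehydrins, this list and the exosome list (484 to 497 against 454 to 475 CPM). Among single genes tested, 8.1% did not overlap, so the count of lists is a description. The exosome sum includes RRP6L1 itself, at 24.6 to 25.9 CPM in ahl10-1 against 5.63 to 8.97 CPM in rrp6l1-2.

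Lists of organs and cell types showed no separation of the mutants. Summed levels overlapped for shoot photosynthesis (86534 to 133501 CPM in ahl10-1, against 90685 to 134789 CPM in rrp6l1-2) and for root markers (3611 to 3768 and 3616 to 4658 CPM). They also overlapped for xylem, stomata, meristem and flower genes. Of 15 seed and embryo genes, SESA3 and LEC1 had 0 reads, and the list summed to 1.70 to 6.24 CPM in ahl10-1, against 3.57 to 30.9 CPM in rrp6l1-2. The seed storage gene CRA1 gave most of the upper value, with 12.9, 25.5 and 0.365 CPM in rrp6l1-2 against 1.81, 0.0951 and 1.61 CPM in ahl10-1.

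The highest list medians differed in sign between replicate numbers. That of carbon starvation genes, the lowest, did not. Iron deficiency genes, which serve iron uptake in roots, had a median of 0.49, made up of 0.26, -0.30 and 1.19 within replicate numbers 1, 2 and 3. The iron transporter gene IRT1 had 15, 18.4 and 16.2 CPM in ahl10-1, 20.5, 14.8 and 134 CPM in rrp6l1-2 and 16.3, 52.0 and 84.9 CPM in WT, and the ferric reductase gene FRO2 followed the same pattern (12.4, 11.5 and 90.5 CPM in rrp6l1-2). Rapidly touch- and wound-induced genes had a median of 0.71, from 0.62, -0.27 and 0.94.

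**Figure D5:**
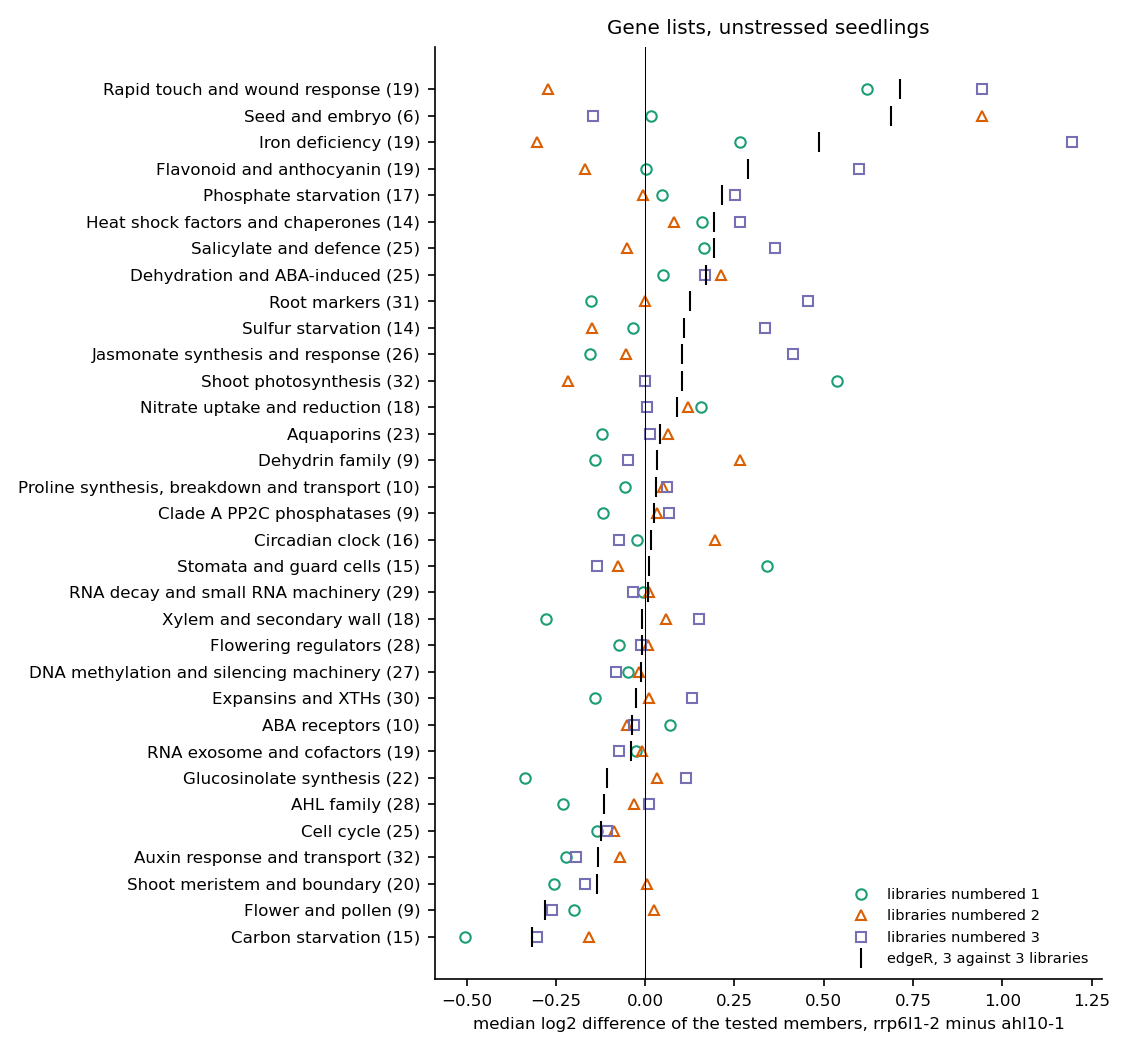
Median log2 difference (horizontal axis, rrp6l1-2 minus ahl10-1) of the tested members of 33 gene lists (number of members in brackets). Ticks are medians of the edgeR fold changes over 3 against 3 libraries; circles, triangles and squares are medians within replicate numbers 1, 2 and 3, which for carbon starvation genes all lie below 0 and for iron deficiency genes spread from -0.30 to 1.19.

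Taking the replicate number as a block moved the calls in opposite ways in the 2 tools. EdgeR with the block, which leaves 2 residual degrees of freedom, called AT1G54410 alone (0.00453%), with 1577 genes at an unadjusted p under 0.05. DESeq2 with the block, an alternative added after the data were seen, called 96 of 23587 genes (0.407%), 55 higher (0.233%) and 41 lower (0.174%), with 34 of the 41 genes of the 3 fits among them. The 62 others divide into 28 higher and 34 lower. At stress, where the same test called 0.273% of all genes, it called 5 of these 62, all in the same direction.

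Of the 62, 3 were among the 15 tested genes of the carbon starvation list and 2 among the 18 of the nitrate list. From the former, the trehalose phosphate synthase genes TPS8 and TPS11 and the raffinose synthase family gene DIN10, all known to rise when sugar runs low, were lower in rrp6l1-2. TPS8 was at 173, 77.5 and 138 CPM in ahl10-1, against 80.4, 57.2 and 94.4 CPM in rrp6l1-2. Its levels overlapped between the mutants, while it was lower in rrp6l1-2 within every number, by -1.1, -0.43 and -0.54 on the log2 scale (DESeq2 with the block, adjusted p = 0.00203; edgeR adjusted p = 0.952). The list's median was -0.32, with -0.50, -0.16 and -0.30 within numbers 1, 2 and 3, and -0.11 without ahl10-1 replicate 1.

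From the nitrate list, the nitrate transporter gene NRT1.1 and the nitrate transport gene WR3 were higher in rrp6l1-2 under that fit. The list as a whole had 12 of 18 members above 0 and a median of 0.089 (0.16, 0.12 and 0.0064 within numbers 1, 2 and 3), and its lowest member was the asparagine synthetase gene ASN1 (-1.53 ± 0.84, edgeR adjusted p = 0.952). NRT1.1 was at 211, 271 and 272 CPM in ahl10-1, against 266, 375 and 395 CPM in rrp6l1-2, higher by 0.33, 0.47 and 0.54 within the numbers (adjusted p = 0.00245 with DESeq2 and the block). The ammonium transporter genes AMT1;2 and AMT1;3 and the phosphate transporter gene PHT1;4 were higher as well (DESeq2 with the block, adjusted p = 0.00368, 0.00519 and 0.0259). Of the 17 tested genes of the phosphate list, that fit called PHT1;4 alone. The transporter genes named here were picked after their values were seen, and a shared function was not tested. Under stress none of these 8 transcripts was called, with log2 values between -0.10 and 0.16 in the same fit (adjusted p = 1.00).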

How the data were processed

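Poly(A) RNA of whole seedlings was sequenced in 18 libraries; the 6 unstressed mutant libraries were compared. Per the labels' protocols, libraries were stranded, and per the submitters' processing notes TAIR10, CASAVA, bcl2fastq 1.8.4, Bowtie2 and DESeq2 were used, without their roles. Per the file headers, the authors deposited expected counts of reads per gene, RPKM, the fraction of multi-mapped reads per gene, and other columns such as gene length, for 33602 loci. Counts were not whole for 3.92% to 4.19% of genes with reads and were rounded to whole numbers. RPKM were used in 2 alternatives and the multi-mapped fraction in 1. The authors' comparison tables were not used. Of the loci, 32835 were named from the TAIR10.1 annotation, and 7430 had 0 reads in the 6 libraries.

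The main test was edgeR 4.0.16 in R 4.3.3 (filterByExpr, TMM, robust glmQLFit, glmQLFTest, Benjamini-Hochberg over all genes tested, adjusted p under 0.05) on the 6 libraries. All adjusted p-values are from this test unless DESeq2 1.42.0, limma 3.58.1 or another fit is named. TMM factors were 0.936 to 1.08 and the biological coefficient of variation 16.4%. P-values of fits without the replicate block measure the spread between 3 separate experiments per group. That spread includes the variation shared by libraries of the same number, which these fits do not remove. Levels use TMM factors over 18 libraries. Within-number list medians use log2(CPM + 0.5). Scripts were tested on simulated data.

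Members and lists were chosen with earlier results of these data known. The rule named RRP6L1, AHL10, 5 genes on each side, up to 12 called genes in each direction by size (no overlap between the mutants, average log2 CPM not under 1), and up to 3 called members per list. The labels number replicates 1 to 3 in every group. The numbers were taken to pair the libraries, because deviations of same-numbered libraries correlated above 0.1 in every pair (0.31, 0.47 and 0.35 over 14457 genes; 0.29, 0.19 and 0.17 at stress). No replicate pair was identical. Alternatives changed the libraries in the fit, normalization, filter, tool, block and unit, or left out each library.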

Additional observations from a re-analysis of the deposited data

Results flagged for a closer look

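LTI78 is given because the mutants differed in opposite directions at the 2 water potentials in every replicate number. Without stress it was higher in rrp6l1-2 in all 3. At stress it was lower in all 3 (87.8, 62.5 and 46.4 CPM in ahl10-1 against 67.1, 48.8 and 41.5 CPM in rrp6l1-2, a difference of means of -13.1 CPM). The test of this difference between water potentials gave a log2 value of -0.97 ± 0.32 with an unadjusted p of 0.0112, and it failed the correction over all genes (edgeR adjusted p = 1.00). LTI78 had been selected for its difference in the unstressed libraries, which this test uses too, so that unadjusted p is a description.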

How the results depend on the processing

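The number of genes called between the unstressed mutants, 4 in the main test, depended on the fit. It was 7 with plain library sizes (5 higher, 2 lower, against 2 and 2), 10 with no filter, 7 with limma on log2(RPKM + 0.1), 16 with 12 mutant libraries in the fit, 19 with all 18, 40 with DESeq2 and 1 with the replicate block. Added after seeing the data, the replicate block gave 96 with DESeq2 and 21 with all 18 libraries. Leaving out 1 library gave 1 to 5; the count was 1 without ahl10-1 replicate 2 and 2 without ahl10-1 replicate 3. At stress, 16 in the main test became 52 with DESeq2 and 67 with DESeq2 and the replicate block (12 with the block in edgeR), and 10 to 16 with 1 library left out (10 without ahl10-1 stress replicate 2). The interaction stayed at 0 except without ahl10-1 stress replicate 1, where 2 genes were called (range 0 to 2): WNK5 and AT3G51632.

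Over 48 described genes and 19 alternatives, 894 fold changes were computed: 743 kept direction and side of the threshold, 122 passed it where the main test did not, 12 lost their call and 17 changed sign. Sign changes touched 5 uncalled neighbours. Leaving out 1 library gave -0.050 to 0.016 for AT1G54460, -0.13 to 0.42 for LYK5, -0.0068 to 0.18 for AT2G33585, -0.026 to 0.087 for CRL2 and -0.12 to 0.11 for AT2G33640. CRL2 was at -0.00664 with plain library sizes and -0.00391 and -0.00404 with limma. AT2G33640 was at -0.00426 with 18 libraries, -0.00220 with 18 and the replicate block, -0.0458 with plain sizes, and -0.0195 and -0.0211 with limma. The cause of these shifts was not tested. Plain library sizes moved the median of all genes to -0.038. Genes under about 1 CPM rest on few reads, and 3 libraries a group limit what can be called.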

Other observations

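The 2 genes called in the interaction without ahl10-1 stress replicate 1 have counts that depend on each other. In 12 of the 18 libraries WNK5, a gene of the WNK kinase family, and AT3G51632 were listed with the same number of reads, between 1444 and 1889. In the other 6 libraries AT3G51632 was listed at 0 and WNK5 at 3009 to 3761. Those 6 include ahl10-1 stress replicates 2 and 3 and none of the unstressed mutant libraries. In the 6 unstressed mutant libraries, 101 of 19398 loci with over 50 reads in each had exactly the counts of another locus in every library, and 0 of them were among the 41 genes described.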
